A study of Homo sapiens with 12 samples.

Results

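The genes described here are 10 whose products mark or drive the epithelial to mesenchymal transition (EMT): vimentin (VIM), the cadherins CDH1, CDH2 and CDH3, the adhesion molecule gene EPCAM, and the transcription factor genes SNAI1, SNAI2, TWIST1, ZEB1 and ZEB2. They were chosen by symbol, each was found once among the 57905 genes of the deposited table, and 7 of the 10 passed the filter on low values, as did 14699 genes in all. RNA was measured in PC9, HCC827 and HCC4006, 3 established lines of human lung adenocarcinoma that carry an EGFR mutation, by sequencing stranded mRNA libraries, 12 in number and in 6 groups of 2. Dormant cells, as the labels call them, had been given 100 nM osimertinib, which inhibits EGFR, and 30 nM trametinib, which inhibits the kinase MEK, for 2 weeks on 15 cm plates. Their controls had been given the solvent DMSO for 24 hours on 10 cm plates. Drug, duration and plate size change together between these groups and cannot be told apart, and all groups grew in RPMI-1640 medium with fetal bovine serum. The plates of a group were set up in duplicate, and nothing says that they came from separately grown cultures, so p-values measure only the spread between these samples. The title of the study concerns dormancy after treatment and transcription under YAP, a partner of transcription factors.

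In EMT, epithelial cells loosen their contacts and take on features of migrating mesenchymal cells. E-cadherin, the product of CDH1, joins epithelial cells through catenins, and SNAI and ZEB proteins are known to repress CDH1 by binding E-box motifs in its promoter, while vimentin filaments and N-cadherin, the product of CDH2, are typical of mesenchymal cells. Lung cancer cells that survive EGFR inhibitors have often been described in such terms.

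Promoter sequences are shown for VIM and ZEB1, which encode a filament protein and a repressor, as genes that were called higher in dormant cells of a line and have an entry in the RefSeq promoter table. Each is the 250 bases before the start lying furthest upstream in that table, on build GRCh38.p14, printed 5′ to 3′ along the gene's strand. The table's orientation was checked against GENCODE v29 transcripts: of 23770 windows, the bases after the start were found in a transcript of the same gene in 17665 and in reverse complement in 2. Capitals mark the E2-box, searched as CAGGTG and CACCTG, each the reverse complement of the other, so that both strands were covered.
VIM: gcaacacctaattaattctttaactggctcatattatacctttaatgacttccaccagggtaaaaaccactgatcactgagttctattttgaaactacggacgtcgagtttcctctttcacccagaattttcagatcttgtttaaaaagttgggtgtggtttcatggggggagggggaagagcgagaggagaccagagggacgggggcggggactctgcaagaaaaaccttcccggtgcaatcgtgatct
ZEB1: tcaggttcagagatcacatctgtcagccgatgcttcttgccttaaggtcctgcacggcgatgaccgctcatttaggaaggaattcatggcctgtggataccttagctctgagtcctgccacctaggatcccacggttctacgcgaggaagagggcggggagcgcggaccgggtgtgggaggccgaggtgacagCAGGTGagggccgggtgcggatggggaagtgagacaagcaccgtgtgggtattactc
The VIM window is chr10:17227991-17228240 on the plus strand and that of ZEB1 chr10:31318167-31318416 on the plus strand. An E2-box was found in the ZEB1 window, beginning at position -57 from the start, where 7 starts of this gene are listed. The window of VIM held none, nor did those of CDH2 (chr18:28177131-28177380, minus strand) and ZEB2 (chr2:144520120-144520369, minus strand), which are not printed because all 250 bases of each lie in a GENCODE v29 transcript of the gene. Of 35116 windows of this length in the table, 6143 (17.5%) held an E2-box. In all, 4 of the 10 genes matched the table. CDH1, CDH3, EPCAM, SNAI1, SNAI2 and TWIST1 are named only.

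Levels are FPKM as deposited by the authors, fragment numbers scaled by transcript length and by library size, so levels can be compared between genes. Differences are taken as dormant minus DMSO and given, ± SE, in log2(FPKM + 1) units from a linear model in limma, and a gene was called at a Benjamini-Hochberg adjusted p under 0.05 over all 14699 tested genes. The summed FPKM of a library ranged from 793883 to 1159352. No counts were analysed here, so depth is unknown, and a relative depth read from the spacing of low FPKM values was 67.6% to 106.4% of that of PC9 DMSO replicate 1 in all libraries but 1. That library, HCC4006 dormant replicate 2, had 39.4%, listed 1948 tested genes at 0 against 368 to 802 elsewhere, and had a Pearson r of 0.654 with its replicate, across genes and not over independent replicates. Its GAPDH level, a gene used by every cell, was 6.7 FPKM against 3755.3 to 19644.7 elsewhere. In HCC827 DMSO replicate 2 the actin gene ACTB had 1842.5 FPKM, against 12726.2 in its replicate, and this pair correlated at 0.909. The other 4 pairs correlated at 0.979 to 0.991. These 2 libraries are called the doubted libraries, and a fit without both, added after the data were seen, leaves 1 library in each of their groups, assumed to vary like the others. Neither is from PC9, so differences within PC9, and between HCC4006 and PC9 controls, are the same in that fit. Only the spread shared by all groups, and with it the p-values, changes there. Markers of lung adenocarcinoma and simple epithelium summed to 515.7 to 22810 FPKM over 7 genes. The lowest sum was that of HCC4006 dormant replicate 2 and the next lowest, 1153 FPKM, that of HCC827 DMSO replicate 2. The keratin genes KRT7, KRT8, KRT18 and KRT19 made up nearly all of each sum. NKX2-1, a lung lineage factor, was highest in HCC4006 dormant replicate 2, at 7.8 FPKM, and was listed at 0 in all 4 PC9 libraries. In bulk RNA, fewer cells of a type and less RNA per cell cannot be told apart.

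Dormant HCC827 cells had higher VIM and SNAI2 RNA than their controls, and dormant HCC4006 cells had higher CDH2 RNA. ZEB1 was called higher there too, but it passed the filter only through those 2 dormant libraries, so that its call is not independent of the filter. In PC9 none of the 7 tested genes was called, while VIM stood lower and CDH1 higher in both dormant libraries than in both controls. In HCC827 2 of 7 were called, both higher, where 4.5% of all tested genes were called and 3.06% were called higher. In HCC4006 it was 2 of 7, both higher, against 6.07% of all tested genes called and 4.88% called higher. In PC9 0 of 7 were called by limma, against 2.71% of all tested genes, and 2 of the 7, VIM and CDH1, had an unadjusted p under 0.05. In the mean of the 3 lines VIM alone of the 7 was called, higher, against 15.4% of all tested genes called and 10.9% called higher. Without the doubted libraries, 2 of 7 were called in PC9, VIM and CDH1, 3 in HCC827 (CDH3 as well), 3 in HCC4006 (VIM as well) and 5 in the mean, all but ZEB1 and EPCAM. In that fit 21.7% of all tested genes were called in PC9, 17.7% in HCC827, 18.6% in HCC4006 and 42.9% in the mean, so calls grew for all genes and not for these alone. The median difference of the 7 genes was -0.06 in PC9, 1.53 in HCC827 and 0.34 in HCC4006, beside 0.05, 0.22 and 0.15 for all tested genes. Without the doubted libraries it was -0.06, 1.02 and -0.04, beside 0.05, 0.12 and 0.31, so that its sign turned in HCC4006. Leaving ZEB1 aside, 1 of 6 was called in HCC4006. Median of ratios scaling brought the median of all tested genes to 0.01 in PC9, 0.01 in HCC827, -0.05 in HCC4006 and 0.03 in the mean, where it was 0.22 without scaling. The share of genes called in the mean that were higher was 70.5% without scaling, 49.2% with median of ratios scaling and 49% with quantile normalization.

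**Figure D1:**
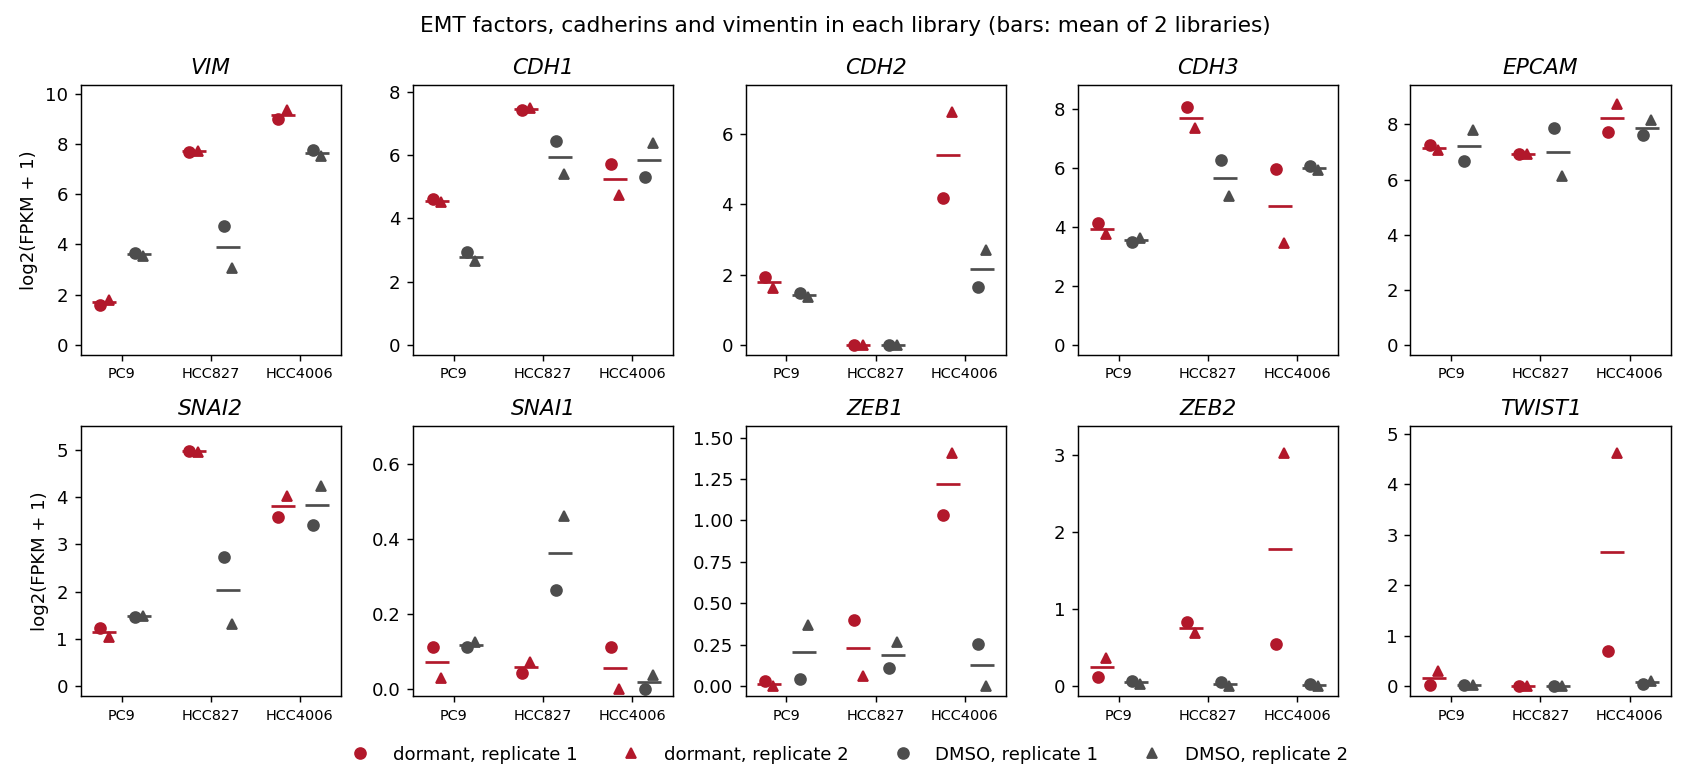
Each of the 10 genes in the 12 libraries, as log2(FPKM + 1) on the vertical axis, by cell line, with dormant libraries in red and DMSO libraries in grey, circles for replicate 1, triangles for replicate 2, and bars for the mean of 2 libraries. VIM lies below its controls in dormant PC9 and above them in dormant HCC827 and HCC4006, and CDH2, ZEB2 and TWIST1 are highest in HCC4006 dormant replicate 2.

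VIM, the gene of the intermediate filament protein vimentin, differed most between the lines. In HCC827 it had 205 and 212 FPKM in dormant cells, against 25.95 and 7.23 FPKM in DMSO cells. Both dormant libraries lay far above both controls, which differed from each other by more than the dormant libraries did. Its mean was 208.4 ± 5.01 FPKM in dormant and 16.59 ± 13.2 FPKM in DMSO cells (SD, n = 2 each), a ratio of 12.6 and a difference of 3.81 ± 0.57 (limma, adjusted p = 0.00646). Without the doubted DMSO library the ratio was 8.03 and the difference 2.96 ± 0.24 (adjusted p = 0.000122). This call was lost without either dormant HCC827 library (adjusted p of up to 0.0785) and held in the other alternatives. In HCC4006 VIM had 504 and 654 FPKM in dormant cells, against 217 and 184 FPKM in DMSO cells. The groups did not overlap, and the level of the controls was already near that of dormant HCC827. The difference in HCC4006 was 1.52 ± 0.57 and was not called (adjusted p = 0.118), but was called without the doubted libraries, at 1.33 ± 0.24 (adjusted p = 0.00654). In PC9 VIM had 2.04 and 2.48 FPKM in dormant cells, against 11.7 and 10.8 FPKM in DMSO cells. Here the dormant libraries were the lower ones, again without overlap, and the mean in DMSO cells was 4.98 times that in dormant cells. The difference of -1.91 ± 0.57 was not called (adjusted p = 0.147). Without the doubted libraries the PC9 values and the difference are the same, and only the shared spread is smaller (SE 0.20).

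The difference of VIM itself varied between the lines, over a range of 5.73 on the log2 scale (moderated F test in limma, adjusted p = 0.0177), where 1.48% of all tested genes were called in that test. VIM was the only one of the 7 called in it. The adjusted p was 0.000383 to 0.126 over the 12 fits with 1 library left out, of which 8 lost the call. The mean of the 3 differences was 1.14 ± 0.33 (adjusted p = 0.0423), a value that averages 2 positive differences and 1 negative. That call too was lost in 8 of 12 fits with 1 library left out (adjusted p 0.00673 to 0.124). For both, these were the fits without any 1 of the PC9, the dormant HCC827 or the DMSO HCC4006 libraries, while both calls held without the doubted libraries, with an adjusted p of 0.00162 for the mean and of 0.000198 for the variation. The mean was also not called with a pseudocount of 0.1, without the filter, with median of ratios scaling or with a replicate block, nor the variation with the stricter filter or the block. By mean level the groups ran from HCC4006 dormant (579 FPKM) through HCC827 dormant, HCC4006 DMSO, HCC827 DMSO and PC9 DMSO to PC9 dormant (2.258 FPKM). HCC827 dormant and HCC4006 DMSO overlapped in that order, as did HCC827 DMSO and PC9 DMSO. VIM-AS1, which overlaps VIM on the opposite strand, stood at 0 to 5.82 FPKM, and whether counting used strand is not stated in the sources used here.

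**Figure D2:**
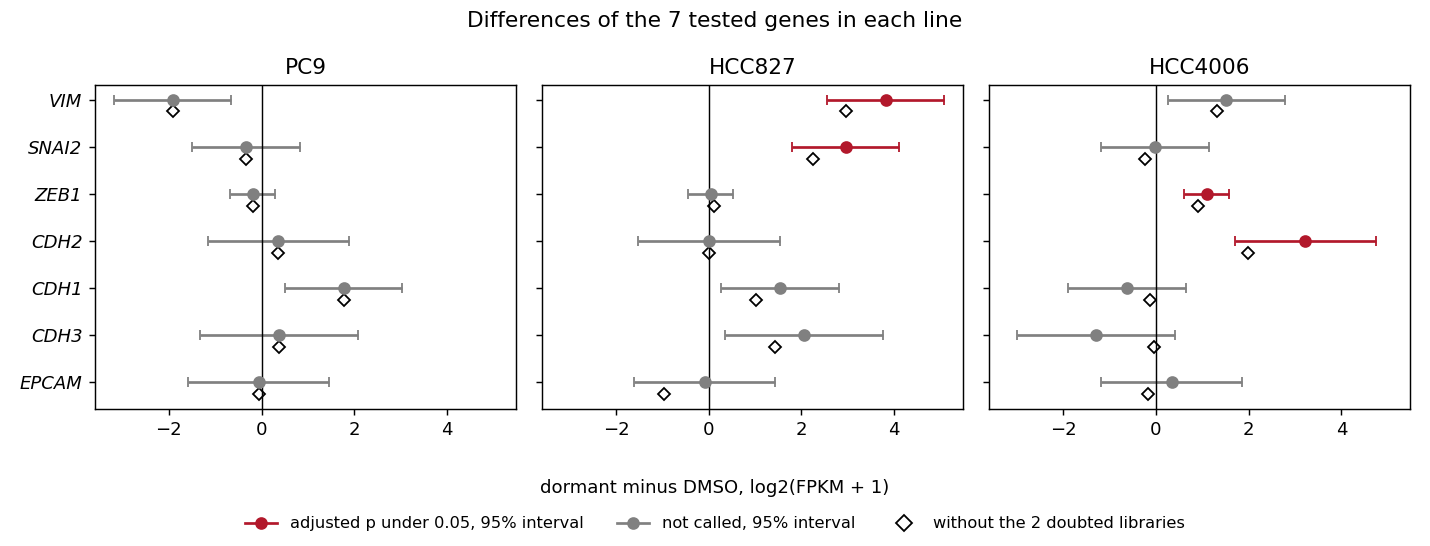
Differences of the 7 tested genes, dormant minus DMSO on the log2(FPKM + 1) scale, with the 95% interval of the fit, in each line, where red marks an adjusted p under 0.05, grey marks genes not called and open diamonds give the difference without the 2 doubted libraries. VIM lies at -1.91 in PC9, 3.81 in HCC827 and 1.52 in HCC4006, and EPCAM lies near 0 in all 3.

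CDH1, the gene of the epithelial adhesion protein E-cadherin, stood higher in dormant cells of 2 lines and overlapped its controls in the third. In PC9 it had 23.3 and 21.7 FPKM in dormant cells, against 6.68 and 5.22 FPKM in DMSO cells. Both dormant libraries lay above both controls, by more than the replicates differed. The ratio of means was 3.78 and the difference 1.77 ± 0.57, not called (adjusted p = 0.186). Without the doubted libraries that difference is the same, and only the shared spread is smaller (SE 0.33). In HCC827 CDH1 had 170 and 179 FPKM in dormant cells, against 85.5 and 41.8 FPKM in DMSO cells. There too the groups did not overlap, with the spread lying in the controls. The difference of 1.53 ± 0.57 was not called, either with all libraries (adjusted p = 0.185) or without the doubted libraries, where it was 1.02 ± 0.40 (adjusted p = 0.117). In HCC4006 CDH1 had 51.8 and 25.9 FPKM in dormant cells, against 38.4 and 83.4 FPKM in DMSO cells. The groups overlapped, and the difference was -0.62 ± 0.57 (adjusted p = 0.483), with a 95% interval of -1.88 to 0.65, and -0.13 ± 0.40 without the doubted libraries (adjusted p = 0.861). In the mean of the 3 lines CDH1 differed by 0.89 ± 0.33 (adjusted p = 0.0934), and by 0.89 ± 0.22 without the doubted libraries (adjusted p = 0.0109).

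CDH3, the gene of P-cadherin, a cadherin of basal and other epithelia, is the protein-coding neighbour of CDH1 in the GENCODE v29 annotation. In HCC827 it had 268 and 163 FPKM in dormant cells, against 76.4 and 32.0 FPKM in DMSO cells. Both dormant libraries lay above both controls, with wide spread in each group. The ratio of means was 3.98 and the difference 2.06 ± 0.76 was not called (adjusted p = 0.185), while without the doubted libraries it was 1.44 ± 0.33 (adjusted p = 0.0173). In HCC4006 it had 61.0 and 10.0 FPKM in dormant cells, against 65.8 and 59.5 FPKM in DMSO cells. The low value was that of the doubted dormant library, and the other lay between the controls. The difference there was -1.28 ± 0.76 (adjusted p = 0.276), and -0.04 ± 0.33 without the doubted libraries (adjusted p = 0.964). In PC9 CDH3 had 16.5 and 12.6 FPKM in dormant cells, against 10.2 and 11.5 FPKM in DMSO cells, a difference of 0.38 ± 0.76 (adjusted p = 1). By mean level, CDH3 was highest in dormant HCC827 and lowest in PC9 DMSO cells. HCC4006 dormant overlapped every group but dormant HCC827, since the doubted library, at 10.0 FPKM, lay below all 4 PC9 libraries.

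CDH2, the gene of N-cadherin, was high in dormant HCC4006 and low or listed at 0 elsewhere. In HCC4006 it had 16.9 and 98.0 FPKM in dormant cells, against 2.13 and 5.49 FPKM in DMSO cells. Both dormant libraries lay above both controls, and the doubted one held the higher value. The ratio of means was 15.1 and the difference 3.23 ± 0.68 (adjusted p = 0.0269), a call lost in 10 of 12 fits with 1 library left out (adjusted p 1.25e-05 to 0.241), all but those without a dormant HCC4006 library, and lost without the filter. Without the doubted libraries the ratio was 4.45, and the difference was 1.99 ± 0.40 and was called (adjusted p = 0.0103). In PC9 CDH2 had 2.82 and 2.10 FPKM in dormant cells, against 1.78 and 1.58 FPKM in DMSO cells. These groups did not overlap but lay close, with a difference of 0.36 ± 0.68 (adjusted p = 1). In all 4 HCC827 libraries CDH2 was listed at 0. The mean of the 3 differences was 1.20 ± 0.39 and was not called (adjusted p = 0.0673), and without the doubted libraries it was 0.79 ± 0.22 (adjusted p = 0.0185).

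Within each library the 3 cadherins can be set against each other by FPKM. CDH2 made up 13.1% and 73.2% of their summed FPKM in dormant HCC4006, against 2.0% and 3.7% in DMSO HCC4006. The dormant shares were higher than both controls, and the doubted library stood far apart. In PC9 CDH1 made up 54.6% and 59.6% in dormant cells, against 35.8% and 28.5% in DMSO cells, so that both dormant shares were higher, while the CDH2 share was 6.61% and 5.76% against 9.5% and 8.64%. In HCC827 the CDH1 share was 38.7% and 52.4% in dormant cells, against 52.8% and 56.6% in DMSO cells, the remainder being CDH3. VIM had 0.0875 and 0.114 times the FPKM of CDH1 in dormant PC9, against 1.76 and 2.06 times in DMSO PC9. In HCC827 the ratio was 1.21 and 1.18 in dormant and 0.304 and 0.173 in DMSO cells, and in HCC4006 it was 9.74 and 25.3 in dormant and 5.65 and 2.2 in DMSO cells. The ratio was thus lower in dormant than in DMSO cells in PC9 and higher in the other 2 lines, without overlap in any line.

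**Figure D3:**
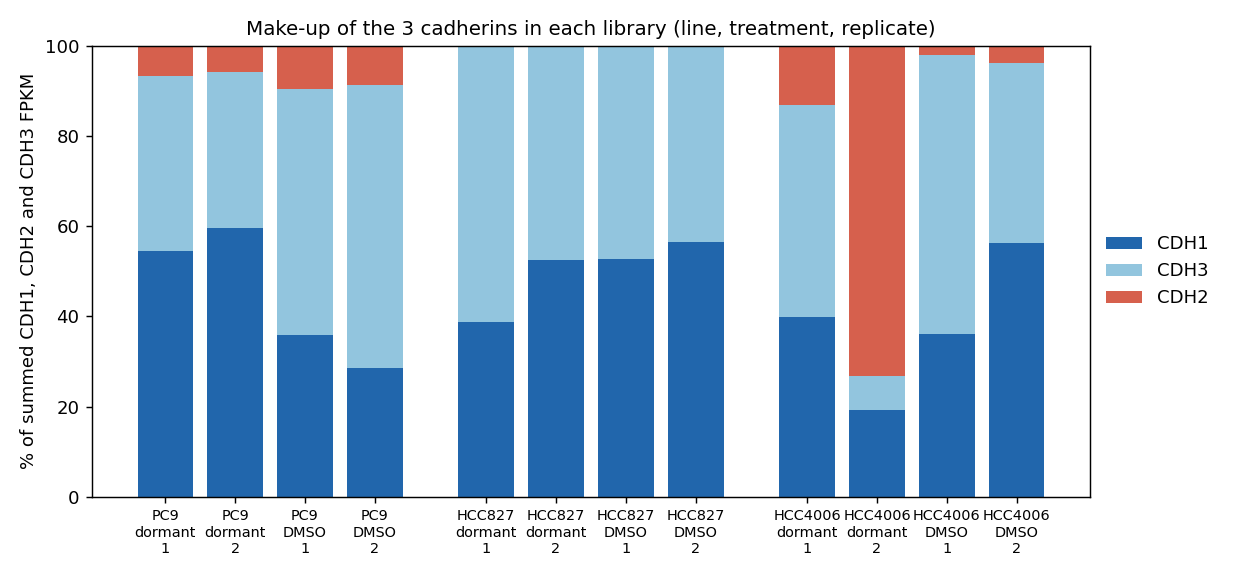
Share of CDH1, CDH3 and CDH2 in their summed FPKM in each of the 12 libraries, as stacked bars from 0 to 100%, labelled by line, treatment and replicate. CDH2 takes 13.1% and 73.2% in dormant HCC4006, at most 9.5% in PC9 and none in HCC827.

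EPCAM, which encodes an adhesion protein of epithelial cells, was highly expressed in every library and was not called in any line. In PC9 it had 153 and 132 FPKM in dormant cells, against 99.8 and 220 FPKM in DMSO cells. In HCC827 it had 120 and 121 FPKM in dormant cells, against 234 and 69.2 FPKM in DMSO cells. In HCC4006 it had 209 and 429 FPKM in dormant cells, against 194 and 286 FPKM in DMSO cells. The groups overlapped in all 3 lines, and the controls of PC9 and HCC827 spread more widely than the dormant pairs. The mean difference was 0.07 ± 0.39 (adjusted p = 0.921), with a 95% interval of -0.81 to 0.94, so that changes in either direction within that interval cannot be told from none here. Its sign turned to -0.24 under median of ratios scaling and to -0.40 without the doubted libraries, not called in either.

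SNAI2, the gene of the zinc finger repressor SLUG, was the most abundant of the 5 factor genes by FPKM in all but 1 library. In HCC827 it had 30.7 and 30.2 FPKM in dormant cells, against 5.65 and 1.5 FPKM in DMSO cells. Both dormant libraries lay far above both controls and close to each other. The ratio of means was 8.53 and the difference 2.95 ± 0.52 (adjusted p = 0.0125), and 2.24 ± 0.35 without the doubted libraries (adjusted p = 0.00305). The call was lost in 3 of 12 fits with 1 library left out, at an adjusted p of up to 0.125, those without HCC827 DMSO replicate 2 or without either dormant HCC827 library, and with a replicate block. In HCC4006 SNAI2 had 11.1 and 15.2 FPKM in dormant cells, against 9.66 and 17.9 FPKM in DMSO cells. The dormant values lay between the controls, and the difference was -0.02 ± 0.52 (adjusted p = 0.988), with a 95% interval of -1.18 to 1.14. In PC9 it had 1.35 and 1.065 FPKM in dormant cells, against 1.76 and 1.81 FPKM in DMSO cells. Both dormant libraries were lower, and the difference of -0.34 ± 0.52 was not called (adjusted p = 0.995). The variation of the difference between lines was not called (range 3.29, adjusted p = 0.0954), but was called under both scalings and without the doubted libraries (adjusted p = 0.0148).

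ZEB1, a zinc finger repressor gene of the other family, was near 0 outside dormant HCC4006. In HCC4006 it had 1.04 and 1.65 FPKM in dormant cells, against 0.19 and 0 FPKM in DMSO cells. Both dormant libraries lay above every other library, whose highest value was 0.32 FPKM in HCC827 dormant replicate 1. The difference was 1.09 ± 0.22 (adjusted p = 0.0213), and 0.91 ± 0.20 without the doubted libraries (adjusted p = 0.0168), but ZEB1 was tested only because these libraries reached 1 FPKM, and without the filter its adjusted p was 0.0714. The call did not hold with a pseudocount of 0.1, without the filter, under either scaling, with a replicate block or without either DMSO HCC4006 library, with an adjusted p of up to 0.118 over all alternatives. ZEB1-AS1, antisense to ZEB1, had 0.385 to 7.21 FPKM, highest in HCC4006 dormant replicate 2, and its part in the ZEB1 value was not tested. In PC9 and HCC827 ZEB1 stood at 0 to 0.32 FPKM in every library, too low to read a difference.

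The remaining factor genes, SNAI1, ZEB2 and TWIST1, did not pass the filter and were not tested in the fit. ZEB2, the paralog of ZEB1, had 0.455 and 7.13 FPKM in dormant HCC4006, against 0.02 and 0 FPKM in DMSO HCC4006. In HCC827 it had 0.775 and 0.615 FPKM in dormant cells, against 0.04 and 0 FPKM in DMSO cells. In both lines the dormant libraries lay above the controls, and the value over 1 FPKM came from the doubted library alone. Without the filter its difference was 1.77 ± 0.65 in HCC4006 (adjusted p = 0.268) and 0.73 ± 0.65 in HCC827 (adjusted p = 0.857). TWIST1, a basic helix-loop-helix factor gene, had 0.615 and 23.6 FPKM in dormant HCC4006, against 0.03 and 0.075 FPKM in DMSO HCC4006, was listed at 0 in all 4 HCC827 libraries and reached at most 0.23 FPKM in PC9. Here too nearly all of the signal was in the doubted library, and without the filter the difference of 2.58 ± 1.00 was not called (adjusted p = 0.293). SNAI1, the gene of SNAIL and the paralog of SNAI2, never exceeded 0.375 FPKM, a value of HCC827 DMSO replicate 2. In HCC827 it had 0.03 and 0.05 FPKM in dormant cells, against 0.2 and 0.375 FPKM in DMSO cells, the reverse order of SNAI2 in the same libraries.

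Dormant and DMSO libraries did not overlap for 6 of the 7 tested genes in PC9, where 62.5% of all tested genes did not overlap, for 4 of 7 in HCC827 (59.4% of all) and for 3 of 7 in HCC4006 (46.2% of all). ZEB1 is among those in HCC4006. Its separation there follows from the filter, since only the dormant HCC4006 libraries reached 1 FPKM. EPCAM was the exception in PC9, and the shares of all genes show that such separation is common between pairs of libraries.

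The highest values of VIM, CDH2, ZEB1, ZEB2 and TWIST1 were all in the doubted library, HCC4006 dormant replicate 2. In replicate 1 VIM, CDH2, ZEB1 and TWIST1 also lay above every library outside dormant HCC4006. ZEB2, at 0.455 FPKM there, lay below both dormant HCC827 libraries. Markers of fibroblasts were examined beside these genes. The 6 markers summed to 375.6 and 263 FPKM in dormant HCC4006, against 1.725 and 1.605 FPKM in DMSO HCC4006 and 0.64 to 3.825 FPKM in the other lines. COL1A2, a chain of type I collagen, made up most of it, with 368 and 250 FPKM in dormant HCC4006, against 0.77 and 1.04 FPKM in DMSO HCC4006. COL1A1, the other chain, had 7.45 and 12.2 FPKM in dormant HCC4006, against 0.805 and 0.48 FPKM in DMSO HCC4006. DCN and COL3A1, which define fibroblasts as well, were listed at 0 in both dormant HCC4006 libraries, where 2 of 6 and 3 of 6 markers reached 1 FPKM. The 4 endothelial markers summed to 8.75 FPKM in HCC4006 dormant replicate 2, all from TIE1 and VWF with CDH5 and KDR at 0, and to 0.03 to 0.245 FPKM elsewhere. The 4 leukocyte markers summed to 0 to 1.09 FPKM, with CD3E at 0 in all libraries. The part of these markers in the results was not tested.

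Between the control groups, HCC4006 carried the most VIM and PC9 the least CDH1. VIM averaged 200.4 ± 23.4 FPKM in HCC4006 DMSO cells, against 11.25 ± 0.7 FPKM in PC9 DMSO cells (SD, n = 2 each), a ratio of 17.8 and a difference of 4.04 ± 0.57 (adjusted p = 0.00213). Against HCC827 DMSO cells, with 16.59 ± 13.2 FPKM, the ratio was 12.1 and the difference 3.75 ± 0.57 (adjusted p = 0.00396), or 7.72 and 2.90 ± 0.24 without the doubted libraries. Both calls held in each of the 21 alternatives, with an adjusted p of up to 0.0317 and 0.0418. CDH1 averaged 60.93 ± 31.8 FPKM in HCC4006 DMSO cells, against 5.95 ± 1.03 FPKM in PC9 DMSO cells, a difference of 3.06 ± 0.57 (adjusted p = 0.00992), lost in 3 of 12 fits with 1 library left out, those without either PC9 DMSO library or without HCC4006 DMSO replicate 2. PC9 DMSO cells also had less CDH1 than HCC827 DMSO cells, whose mean was 63.61 ± 30.9 FPKM, by a difference of -3.14 ± 0.57 (adjusted p = 0.00852), lost without either PC9 DMSO library. CDH3 averaged 62.66 ± 4.46 FPKM in HCC4006 DMSO cells, against 10.86 ± 0.902 FPKM in PC9 DMSO cells. The difference of 2.42 ± 0.76 was not called with all libraries (adjusted p = 0.085). Without the doubted libraries its size is the same but the shared spread is smaller (SE 0.27), and the call changed. SNAI2 averaged 13.77 ± 5.81 FPKM in HCC4006 DMSO cells, against 1.788 ± 0.0318 FPKM in PC9 DMSO cells, a difference of 2.35 ± 0.52 (adjusted p = 0.0219), a call lost without either PC9 DMSO library, either dormant HCC827 library or HCC4006 DMSO replicate 2, and without the filter. HCC4006 controls thus had more VIM, CDH1 and SNAI2 than PC9 controls, 3 of 7 genes higher, where 8.25% of all tested genes were called and 5.48% were called higher. Against HCC827 controls, HCC4006 controls had 1 of 7 called, VIM, where 5.36% of all genes were called and 3.52% were called higher. PC9 controls against HCC827 controls had 1 of 7 called, CDH1, where 8.25% of all genes were called and 4.11% were called lower. These comparisons share their DMSO libraries with each other and with the comparisons of dormant cells.

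Other genes of cell adhesion and of EMT, in lists chosen with earlier results of these data known, are given as counts of members called. Of 18 other cadherin genes 3 were tested, and all 3 were higher in dormant HCC4006: CDH6, CDH11 and CDH26, with differences of 2.13, 2.35 and 1.35, against 2 of the 3 under either scaling. Of all tested genes 4.88% were higher there, 2.3% under median of ratios scaling and 2.41% under quantile normalization. CDH26 passed the filter only through the dormant HCC4006 libraries, which leaves 2 of 2, and CDH11 stood at 1.19 ± 0.16 without the doubted libraries. CDH6 had 25.2 and 25.1 FPKM in dormant HCC4006, against 2.86 and 8.31 FPKM in DMSO HCC4006 (adjusted p = 0.0157). Both dormant values were alike, and the difference of CDH6 without the doubted libraries was again 2.13. None of the 3 was called by limma in PC9 or HCC827, with 0 at an unadjusted p under 0.05. CDH6 and CDH26 were also called in the mean of the lines, at 0.92 ± 0.23 and 0.54 ± 0.14, where 10.9% of all tested genes were higher.

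Catenins link cadherins to the cytoskeleton, and 4 of 7 were tested. With all libraries none was called in any line or in the mean by limma, with 2 at an unadjusted p under 0.05 in HCC827 and 1 in the mean. In HCC827 JUP, the gene of plakoglobin, had 47.9 and 32.1 FPKM in dormant cells, against 8.96 and 2.31 FPKM in DMSO cells. The groups did not overlap, and the difference of 2.81 ± 0.71 had an adjusted p of 0.0577, or 0.00409 at a difference of 2.02 without the doubted libraries. CTNND1, which encodes p120-catenin, had 121 and 43.8 FPKM in dormant HCC827, against 11.8 and 10.3 FPKM in DMSO HCC827, with a difference of 2.62 ± 0.65 (adjusted p = 0.0517, or 0.0385 without the doubted libraries). CTNNB1, the gene of beta-catenin, had 8.77 and 3.50 FPKM in dormant PC9, against 15.8 and 18.2 FPKM in DMSO PC9. Its difference of -1.44 ± 0.80 was not called with all libraries (adjusted p = 0.572). Without the doubted libraries its size is the same but the shared spread is smaller (SE 0.38), and the call changed. The same holds for JUP in PC9, at 0.95 ± 0.71 with all libraries and an SE of 0.27 without the doubted ones. CTNNA1, the gene of alpha-catenin, differed by 0.25 ± 0.70 in PC9, 1.20 ± 0.70 in HCC827 and -0.28 ± 0.70 in HCC4006, not called in any.

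Of 12 other transcription factor genes of EMT, 5 were tested, and 2 rose in the mean of the lines, where 10.9% of all tested genes were higher. Under either scaling 2 were higher and 1 lower. Of all tested genes 8.46% were lower under median of ratios scaling and 8.95% under quantile normalization. SOX4, a factor of progenitor cells, rose by 2.54 ± 0.34 (adjusted p = 0.00139). It had 370 and 292 FPKM in dormant HCC4006, against 22.5 and 71.8 FPKM in DMSO HCC4006, and 218 and 288 FPKM in dormant HCC827, against 41.5 and 30.6 FPKM in DMSO HCC827. In both lines the groups lay far apart, and SOX4 was called in each. In PC9 SOX4 had 5.04 and 8.89 FPKM in dormant cells, against 1.36 and 0.96 FPKM in DMSO cells. That difference, 1.84 ± 0.58, was not called with all libraries (adjusted p = 0.178). Without the doubted libraries its size is the same but the shared spread is smaller (SE 0.47), and the call changed. KLF8 was called in PC9 at 1.52 ± 0.25 (adjusted p = 0.0108) and in the mean at 0.61 ± 0.14, but would not have passed the filter on DMSO libraries alone. Nor would TCF4, and 1 of the other 3 genes was higher in the mean. HMGA2, a chromatin protein gene, stood at -1.5 in the mean without the doubted libraries. It falls outside the rule for named genes and was chosen after its values were seen. Of 12 factors of the epithelial state, 11 were tested and 2 were higher in the mean, the grainyhead genes GRHL1 (0.87 ± 0.19, adjusted p = 0.0147) and GRHL3 (0.71 ± 0.13, adjusted p = 0.00645), beside 10.9% of all tested genes higher. GRHL3 reached 1 FPKM in dormant libraries only, so its test is not independent of the filter. Without the doubted libraries 4 were higher, where 30% of all tested genes were.

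Of 23 other epithelial genes, 22 were found and tested, and 6 were higher and 0 lower in the mean of the lines, against 15 higher and 2 lower without the doubted libraries and 4 higher and 0 lower under either scaling. Of all tested genes, 10.9% were higher in the mean, and without the doubted libraries 30% were higher and 12.8% lower. OCLN and TJP1, both of tight junctions, rose in the mean by 1.91 ± 0.33 (adjusted p = 0.00464) and 1.30 ± 0.36 (adjusted p = 0.0387). The median of the list was 1.01 in PC9, 1.37 in HCC827 and -0.32 in HCC4006, beside 0.05, 0.22 and 0.15 for all tested genes. In HCC4006 none was called by limma, with 7 at an unadjusted p under 0.05. Without the doubted libraries the list median in HCC4006 was 0.39, near the 0.31 of all tested genes in that fit. The simple keratin gene KRT19 was lower in both dormant HCC4006 libraries, and lowest in the doubted one. It had 363 and 9.90 FPKM in dormant HCC4006, against 2446 and 2533 FPKM in DMSO HCC4006. Its difference there without the doubted libraries was -2.77, beside the list median of 0.39.

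Of 26 other mesenchymal genes, 20 were tested, and 9 were higher and 0 lower in the mean. It was 12 higher and 3 lower without the doubted libraries, 8 higher and 3 lower under median of ratios scaling and 8 higher and 1 lower under quantile normalization. The shares of all tested genes are those given for the epithelial genes, with 8.2% higher and 8.46% lower under median of ratios scaling and 8.61% and 8.95% under quantile normalization. COL1A1, COL1A2 and WNT5A would not have passed the filter on DMSO libraries alone, and 6 of the other 17 were higher in the mean. In HCC4006 7 were higher, 3 of them the genes just named, in HCC827 2 and in PC9 1, with TGFBI lower in PC9 at -4.36. Of all tested genes 4.88% were higher in HCC4006 and 3.06% in HCC827, and in PC9 268 of 14699 were higher and 131 lower. FN1, the gene of fibronectin, had 57.8 and 69.0 FPKM in dormant PC9, against 5.51 and 7.98 FPKM in DMSO PC9, and rose by 2.51 ± 0.26 in the mean (adjusted p = 0.000431). In PC9 FN1 was thus called higher (3.07 ± 0.45, adjusted p = 0.00607) in the line where VIM stood lower. SPARC, a matrix protein gene, rose by 2.53 ± 0.45 in the mean (adjusted p = 0.00591), with 5692 and 753 FPKM in dormant HCC4006, against 89.9 and 96.4 FPKM in DMSO HCC4006. The median of the list was 0.00 in PC9, 0.51 in HCC827 and 1.32 in HCC4006, beside 0.05, 0.22 and 0.15 for all tested genes. In HCC827 it was 0.29 under median of ratios scaling, 0.21 under quantile normalization and 0.10 without the doubted libraries, where that of all tested genes was 0.12. Of 5 other filament genes 2 were tested and none was called in any line by limma, with 1 at an unadjusted p under 0.05, in HCC4006.

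**Figure D4:**
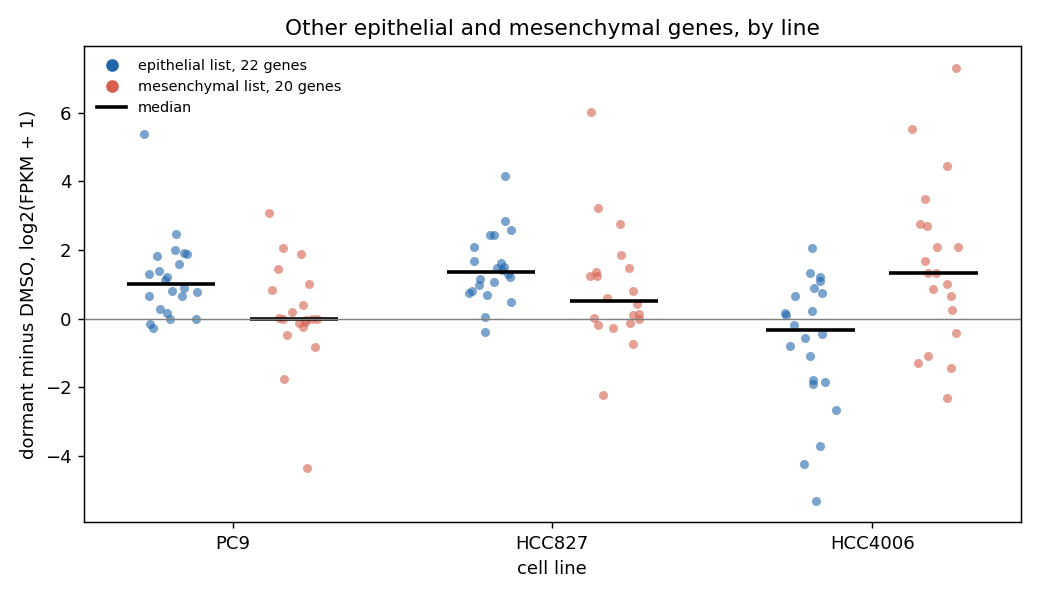
Differences of the 22 other epithelial genes (blue) and the 20 other mesenchymal genes (red) in each line, dormant minus DMSO on the log2(FPKM + 1) scale, 1 point a gene, with the median of each list as a black bar. The epithelial medians are 1.01 in PC9, 1.37 in HCC827 and -0.32 in HCC4006, and the mesenchymal ones 0.00, 0.51 and 1.32.

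The genes with the most similar pattern were taken by Pearson's r of log2(FPKM + 1) over the 12 libraries, which share 3 lines and 2 treatments, and these r are descriptions. VIM was most like PCNX2 (0.964), SCG5 (0.957) and PID1 (0.954). CDH1 was most like ORMDL2 (0.971), HAUS4 (0.945) and IRF9 (0.944), and CDH3 like ZC4H2 (0.969), LINC01376 (0.967) and CKB (0.965). CDH2, whose pattern rests mainly on dormant HCC4006, was most like KIAA1211L (0.984), IGFBP7 (0.984) and TUBE1 (0.981). SNAI2 was most like COL17A1 (0.958), a hemidesmosomal collagen gene of epithelia, PCDHA3 (0.952) and CLMN (0.952). EPCAM had no gene above 0.89, that of POLR3E. For ZEB1 the highest were 2 genes with no symbol in the table and GRIN2A (0.953).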

How the data were processed

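RNA of 12 libraries (6 groups of 2, by cell line and treatment) was analysed. FPKM were computed by the authors and deposited to 0.01. The submitters' processing notes name DESeq2 1.10.1, STAR 2.5.1b and Cufflinks 2.2.1, and as builds GRCh37 and hg19, with no role or order. Each library has 2 value columns, R1 and R2, whose content is not stated. They were averaged per library and counted as 1, and differed by at most 0.242 on the log2(FPKM + 1) scale for the 10 genes. No depth or counting interval can be given without counts. Relative depth came from the FPKM steps of U6 pseudogenes.

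A gene was tested if 2 or more libraries reached 1 FPKM. On log2(FPKM + 1), which understates folds of low genes, limma 3.58.1 (R 4.3.3) was run (lmFit, eBayes with a mean-variance trend, 6 residual and 3.8 prior degrees of freedom, 1 spread shared by all groups) and two-sided tests. Tables and figures used Python 3.11.15, pandas 2.3.3, numpy 2.4.6 and matplotlib 3.10.9. The fit was tested on simulated data. Alternatives were a pseudocount of 0.1, no filter, at least 1 FPKM in 6 libraries, median of ratios and quantile scaling, R1 or R2 alone, a replicate block, each library left out, and the fit without the doubted libraries. Named genes were the 10, up to 3 called in the mean per list by size, all catenins, and the 3 most similar genes of each tested member. Some genes that this rule names are not reported here. Members and lists were chosen with earlier results of these data known. Replicate numbers of a line deviated together at correlations of 0.04 to 0.17 and were not taken as pairs. Gene overlaps and neighbours came from GENCODE v29. No gene position is given, since that annotation is on another build than the authors' values. INADL was not found under its symbol. Promoters are from RefSeq (GRCh38.p14).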

Additional observations from a re-analysis of the deposited data

Results flagged for a closer look

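VIM differed between lines in the change with treatment: the dormant minus DMSO difference was -1.91 in PC9, 3.81 in HCC827 and 1.52 in HCC4006, and the moderated F test of that variation gave an adjusted p of 0.0177. For SNAI2 both dormant libraries lay above both DMSO libraries in HCC827 and below them in PC9, over a range of differences of 3.29, and the same F test did not call this variation (adjusted p = 0.0954). For ZEB1 both dormant libraries lay above both DMSO libraries in HCC4006 and below them in PC9, over a range of 1.28, with an adjusted p of 0.144 in that test, and the PC9 values were at most 0.02 FPKM in dormant and 0.29 FPKM in DMSO cells. The order of ZEB1 in HCC4006 follows from the filter, which it passed only through those dormant libraries. With 2 libraries a group, such separation is common, as the shares of all tested genes given above show.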

How the results depend on the processing

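Calls among the 7 tested genes depended on single libraries. Over the fits with 1 library left out, 0 to 2 were called in PC9, 0 to 4 in HCC827, 0 to 4 in HCC4006, 0 to 4 in the mean and 0 to 6 in the test of variation between lines, and between controls 1 to 4 for HCC4006 against PC9, 1 to 3 for HCC4006 against HCC827 and 0 to 3 for PC9 against HCC827. Without both doubted libraries 2 were called in PC9, 5 in the mean, 2 in the variation, 2 for HCC4006 against HCC827 controls and 5 for PC9 against HCC827 controls, where 3191, 6299, 1311, 2893 and 3762 of all 14699 genes were called. In HCC4006 the count was 1 with a pseudocount of 0.1, the stricter filter or either scaling, and 0 without a filter. Of all genes 629 were called there with median of ratios scaling, 646 with quantile scaling and 446 of 40839 without a filter. In the mean the count of the 7 was 0 with a pseudocount of 0.1, without a filter or with median of ratios scaling. Of all genes 1498 were called in the mean without a filter and 2450 with median of ratios scaling. The variation had 0 of the 7 with the stricter filter and 2 under either scaling, where 231 and 245 of all genes were called. Control comparisons of HCC827 with HCC4006 and PC9 had 2 each with a pseudocount of 0.1, which adds CDH2. Counts over all genes are not given here for that pseudocount or for the stricter filter. The counts of the 7 under those settings therefore cannot be set beside them. For PC9, and for HCC4006 against PC9 controls, leaving out the doubted libraries changes only the shared spread and not the differences. The cause of the other changes was not tested.

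Replicate numbers share no stated origin. With a replicate block, 1 gene was called in HCC827 (VIM), 1 in HCC4006 (CDH2), 1 in the mean (CDH2 in place of VIM) and 0 in the variation. The counts over all genes with the block are not given here. A loss of calls in these genes cannot be told from a general loss.

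Sign changes were seen, among all alternatives, only in differences that were not called in the fit reported. ZEB1 in HCC827 turned to -0.03 with median of ratios and -0.13 with quantile scaling. EPCAM turned to -0.08 in HCC4006 and -0.24 in the mean with median of ratios, and to -0.17 and -0.40 without the doubted libraries. For HCC4006 against HCC827 controls CDH3 turned to -0.04, -0.15 and -0.28 under median of ratios, quantile scaling and without the doubted libraries, and ZEB1 to 0.01 in the last. For PC9 against HCC827 controls EPCAM turned to -0.66 without the doubted libraries, and ZEB1 to -0.06 with a pseudocount of 0.1 and -0.03 with quantile scaling. With 1 library left out, EPCAM ranged from -0.63 to 0.51 in PC9, -0.96 to 0.79 in HCC827, -0.17 to 0.86 in HCC4006 and -0.22 to 0.36 in the mean, ZEB1 from -0.13 to 0.21 in HCC827, SNAI2 from -0.43 to 0.39 in HCC4006 and CDH3 from -0.03 to 0.8 in the mean. Between controls, ZEB1 ranged from -0.24 to 0.08 for HCC4006 against PC9, CDH1 from -0.63 to 0.47, CDH3 from -0.28 to 0.95 and ZEB1 from -0.19 to 0.06 for HCC4006 against HCC827, and EPCAM from -0.66 to 1.09, SNAI2 from -1.25 to 0.16, VIM from -1.14 to 0.57 and ZEB1 from -0.15 to 0.18 for PC9 against HCC827. Counts over all genes ranged from 95 to 1638 in PC9, 84 to 2974 in HCC827, 128 to 8607 in HCC4006 and 1025 to 7390 in the mean with 1 library left out, against 399, 661, 892 and 2268, from 65 to 8050 in the variation (217), and between controls from 340 to 4298 for HCC4006 against PC9 (1212), 266 to 3265 for HCC4006 against HCC827 (788) and 360 to 4124 for PC9 against HCC827 (1213). Low depth of HCC4006 dormant replicate 2 limits what its values under 1 FPKM can show.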
